A study of Caenorhabditis elegans with 6 samples.

Results

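The pqn and abu genes of Caenorhabditis elegans were examined as 1 group, chosen by name. Every gene whose symbol in the array's probe annotation was pqn or abu followed by a number was taken, and each gene was read from its brightest probe set by mean over all arrays. This gave 58 genes, 47 pqn and 11 abu, of 17118 genes that had a probe set with a single symbol. RefSeq lists 2 of the 58 as pseudogenes, pqn-11 and abu-3.

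The study set worms flown on the International Space Station beside a ground control of the same strain, CC1, described as wild type. Both groups grew in CeMM, a culture medium, as populations of mixed stages passed through up to 10 generations, with a transfer to fresh medium about once a month, and the ground worms were passaged in step with the flown ones. Total RNA was read on 6 one-colour Affymetrix arrays, with 3 for each group, all named technical replicates. The labels do not say that arrays of a group came from separate cultures, so every p-value below reflects array-to-array spread alone, possibly technical, and 3 arrays a group limit the precision. Both groups were whole worms, so fewer cells of a type and less RNA per cell cannot be told apart.

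The pqn genes were named for a prion-like stretch rich in glutamine and asparagine, the amino acids that also fill the self-assembling domains of yeast prions. The name covers unrelated proteins, among them RNA-binding proteins inside the cell and secreted proteins of extracellular matrices. The abu genes were named because they were activated when the unfolded protein response of the endoplasmic reticulum was blocked, and they encode secreted or membrane-bound proteins of a related glutamine- and asparagine-rich kind. Their induction has been tied to the engulfment receptor CED-1 and to the neuronal receptor OCTR-1. Several abu genes and their pqn relatives are also expressed in the cells that line the pharynx, where they are turned on at each moult as the pharyngeal cuticle is rebuilt.

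None of the 58 genes passed the test. By limma, with Benjamini-Hochberg adjustment over all 22548 probe sets, 0 rose and 0 fell at an adjusted p under 0.05 and at least 2-fold, while 7.76% of all genes did so (5.34% higher and 2.42% lower on the space arrays). At an adjusted p under 0.05 with no minimum fold the count was again 0, against 9.64% of all genes. At an unadjusted p under 0.05 there were 6 of 58, 1 higher and 5 lower, where 25.6% of all genes lay under that limit (15.1% higher and 10.5% lower). The log2 fold changes of the group, space condition minus ground control on the scale log2(intensity + 16), ran from -0.93 to 0.89 with a median of -0.03, beside a median of -0.02 over all genes. Their SD was 0.40, against 0.63 over all genes.

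A missed threshold does not show that levels were equal, so the interval of each difference was taken. For 36 of the 58 genes the 95% interval lay within a 2-fold change in either direction, as it did for 44.0% of all genes. For the other 22 the interval reached a 2-fold change in at least 1 direction. Of the 36, 10 had means at or below 86.7, the highest value of the controls for absent sequences described below. The constant added before the log shrinks differences of dim genes, so those 10 intervals are not read as equal levels. Of the 37 genes with higher means, 26 (70.3%) had an interval within 2-fold, against 47.8% of all genes with such means. In 11 of the 58 genes, the 3 arrays of one group all lay above the 3 of the other, 3 with the space arrays higher and 8 with them lower. Groups failed to overlap in 31.4% of all genes, 17.6% with the space arrays higher and 13.8% with them lower.

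**Figure D1:**
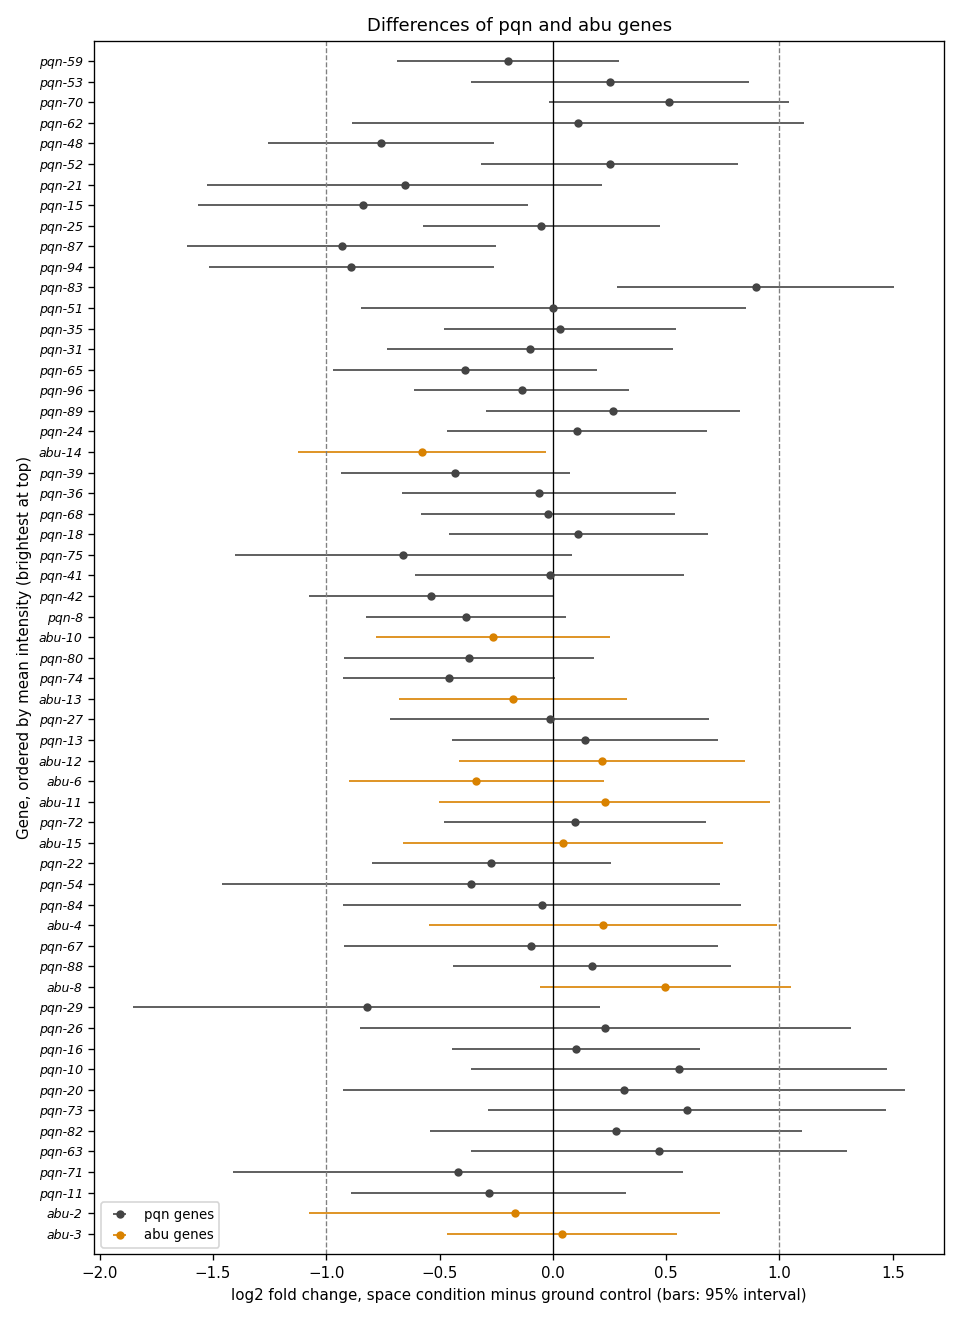
Log2 fold change (x axis, space condition minus ground control) of each of the 58 genes (y axis, ordered by mean intensity), with bars for the 95% interval from limma and dashed lines at a 2-fold change. No gene lies past a dashed line, the lowest is pqn-87 at -0.93 and the highest pqn-83 at 0.89.

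Levels near background bear on many of these genes. The 8 control probe sets for sequences that worm RNA should lack had a median intensity of 6.48 over the arrays, and their single highest value was 86.7. Of the 58 genes 21 (36.2%) had a mean at or below that highest value, as did 43.0% of all genes. These 21 genes were 5 abu genes (abu-2, abu-3, abu-4, abu-8 and abu-15) and 16 pqn genes. None of the 21 lay under an unadjusted p of 0.05, which 12.2% of all genes in that range did. Of the 37 genes above it, 6 lay under an unadjusted p of 0.05, where 35.6% of all genes above that level did, and in 10 the groups did not overlap, against 43.9%. Intensities of different probe sets depend on the probes as well as the transcript, so the order of genes by intensity says how far each was from background and is no order of transcript amounts.

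**Figure D2:**
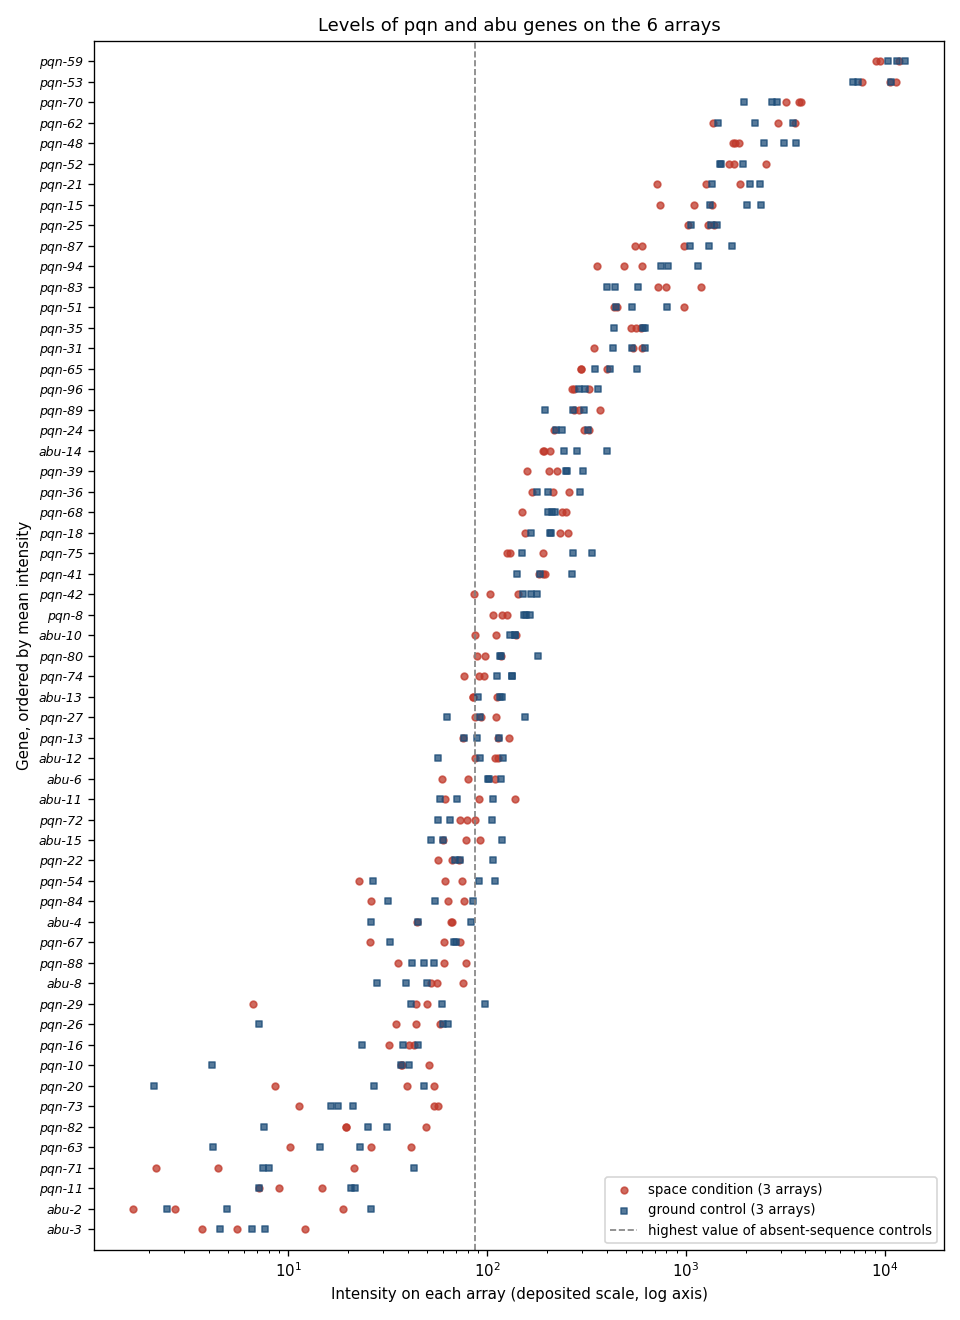
Intensity on each array (x axis, log scale) for the 58 genes (y axis, ordered by mean intensity), with circles for the 3 space arrays, squares for the 3 ground arrays and a dashed line at 86.7, the highest value of the controls for absent sequences. The groups are intermixed in most rows, and 21 genes have means at or left of the line.

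The 11 abu genes had a median intensity of 87.8, against 122.1 over all genes, and 2 of them, abu-14 and abu-10, lay above the latter. The brightest, abu-14, has been used as a marker of the pharyngeal cuticle group. It read 194, 191 and 208 on the space arrays and 243, 401 and 284 on the ground arrays. The space arrays were the lower in every case and the groups did not overlap, with ground control 2 well above the rest. The log2 fold change was -0.58 ± 0.24 (SE; 95% interval -1.12 to -0.03), with an unadjusted p of 0.0411 and an adjusted p of 0.181 in limma. A second probe set for abu-14 read 86.7, 140.3 and 151 on the space arrays and 151, 233 and 173 on the ground arrays. It stood at -0.52 ± 0.27 (adjusted p = 0.29, limma), so both probe sets were lower on the space arrays and neither passed.

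For abu-11, whose extra copies were reported to lengthen worm life, the space arrays read 61.6, 91.0 and 138 and the ground arrays 71.1, 107 and 58.0. The groups overlapped fully, and the log2 fold change was 0.23 ± 0.32 (95% interval -0.50 to 0.96, limma). The abu-11 probe set is marked as sharing probes with other sequences. Of the 58 genes 25 were read from probe sets so marked, among them abu-4, abu-8, abu-12, abu-13, pqn-59, pqn-53 and pqn-70. The neighbouring genes abu-15 and abu-6, adjacent among protein-coding genes in the RefSeq table of assembly WBcel235, are read by probe sets marked as sharing probes with other sequences. On these abu-6 read 59.7, 80.6 and 110.1 on the space arrays and 101, 118 and 103 on the ground arrays, overlapping at its brightest space array (-0.34 ± 0.24). For abu-15 the values were 78.5, 59.9 and 91.8 on the space arrays and 60.3, 119.4 and 52.1 on the ground arrays, with no separation (0.05 ± 0.31).

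The abu gene with the highest log2 fold change was abu-8, at 0.50 ± 0.24 (adjusted p = 0.253, limma). Its probe set read 52.04, 56.0 and 76.0 on the space arrays and 49.9, 28.1 and 39.1 on the ground arrays, so the groups did not overlap. All 6 values lay below the highest control for absent sequences, and another abu-8 probe set stood at -0.49. On their brightest probe sets the remaining abu genes overlapped between the groups. Of these abu-10 stood at -0.26, abu-13 at -0.18 and abu-2 at -0.17, while abu-3 stood at 0.04, abu-12 at 0.22 and abu-4 at 0.22. The one abu-4 probe set that is not so marked as shared stood at -0.75 ± 0.31 with no overlap between the groups (unadjusted p = 0.0404, adjusted p = 0.179, limma), at values of 5.53 to 53.9 that all lay in the range of absent sequences. Intensities of abu-2 and abu-3 were 1.66 to 26.2 over the 6 arrays, in the range of absent sequences.

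Relatives of these genes lie so close in sequence that 9 further probe sets carry several symbols of which at least 1 is pqn or abu. They read 11 genes that no probe set of a single symbol read, and were kept out of the 58. Their intensities were 14.9 to 213, with a median of 90.5. None of the 9 passed the test, where 7.31% of all probe sets did. The log2 fold change was below 0 in 8 of them (51.3% of all genes), with a median of -0.51 and a range from -0.71 to 0.06. At an unadjusted p under 0.05 in limma 2 were lower and 0 higher (10.5% and 15.1% of all genes). In 4 of the 9 the space arrays lay below every ground array (13.8% of all genes). Since these probe sets overlap in the genes they read, they are not separate measurements. The array with the highest value was ground control 2 in 8 of the 9, in 6 of the 11 abu genes and in 13 of the 47 pqn genes, beside 26.5% of all genes and 35.0% of the genes with means up to 86.7. The part of that array in the lower space values was not tested apart from leaving it out, which moved abu-14 from -0.58 to -0.38.

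Among the brightly read pqn genes, pqn-59 encodes the worm counterpart of human UBAP2L, an RNA-binding protein of stress granules. It read 11783, 9045 and 9484 on the space arrays and 12700.4, 10366 and 11609.8 on the ground arrays. The groups overlapped, and the difference of -0.20 ± 0.21 (SE) had a 95% interval of -0.69 to 0.29, within 2-fold in either direction (limma). Its second probe set gave -0.26. For pqn-53 the space arrays read 7696, 10700.3 and 11359.6 and the ground arrays 6969.5, 7341 and 10830.2. Overlap was again wide (0.25 ± 0.27, 95% interval -0.36 to 0.86). A dimmer pqn-53 probe set separated the groups, at 2255 to 2727 in space and 1284 to 1875 on the ground, with a log2 fold change of 0.61 ± 0.23 and an adjusted p of 0.143 in limma.

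The gene pqn-70 read 3707, 3211 and 3788 on the space arrays and 2725, 1956 and 2890.3 on the ground arrays. Every space array was the higher (0.51 ± 0.23, adjusted p = 0.217, limma), and a second probe set stood at 0.43. The opposite order was seen for pqn-48, which read 1731, 1759.5 and 1861 on the space arrays and 3126, 3575 and 2482 on the ground arrays. Its space arrays lay close together and below every ground array. The log2 fold change was -0.76 ± 0.22 (95% interval -1.26 to -0.26), and at an adjusted p of 0.0702 it had the lowest adjusted p of the 58 genes in limma.

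Values of others of the 8 brightest differed widely between arrays of one group. For pqn-62 the space arrays read 1375, 3556 and 2907 and the ground arrays 1455, 2239 and 3459, a difference of 0.11 ± 0.43. Replicate 1 was the lowest array of both groups there, and likewise for pqn-21 and pqn-15. The values of pqn-21 were 721, 1865 and 1271 on the space arrays and 1358, 2113 and 2355 on the ground arrays (-0.65 ± 0.38, adjusted p = 0.34, limma). Dimmer pqn-21 probe sets stood on the other side of 0, at 0.12 and 0.13. For pqn-52 replicate 1 was the highest of both groups, at 2527 on the space and 1939.5 on the ground arrays, and the difference was 0.25 ± 0.25. Over the 58 genes replicate 1 was the lowest array of both groups in 18 and the highest of both in 10, which is 31.0% and 17.2%, where all genes gave 26.8% and 13.6%.

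The largest log2 fold changes of the group belonged to pqn-87, pqn-83, pqn-94, pqn-15 and pqn-29, none of which passed. The gene pqn-87 read 976, 553 and 602 on the space arrays and 1714, 1303 and 1045 on the ground arrays, without overlap. Its log2 fold change was -0.93 ± 0.30 (95% interval -1.61 to -0.25, adjusted p = 0.0948, limma), and a dimmer probe set stood at -0.62. With a covariate for the 5'/3' ratio of array controls (actin and Gapdh) it stood at -1.31 with an adjusted p of 0.0464 in limma, and this was the single alternative in which any of the 58 genes passed. The covariate, the mean log2 of 5' over 3' for both controls, was -1.94, -2.66 and -2.33 on the space arrays and -2.23, -2.95 and -3.97 on the ground arrays, so the groups overlapped. Of its parts the actin ratio did not overlap, at -3.12 ± 0.164 on the space and -3.97 ± 0.358 on the ground arrays (mean ± SD, n = 3 each), while the Gapdh ratio did, at -2.06 to -0.94 on the space and -3.65 to -0.87 on the ground arrays.

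For pqn-94 the space arrays read 359, 489 and 605 and the ground arrays 816, 754 and 1150.0. All space arrays were the lower, with a log2 fold change of -0.89 ± 0.27 (adjusted p = 0.0854, limma). The values of pqn-15 were 739, 1363 and 1100.1 on the space and 1331, 2033 and 2388 on the ground arrays, overlapping by 1 array (-0.84 ± 0.31, adjusted p = 0.148, limma). A dimmer pqn-15 probe set stood at -0.32. For pqn-29 the highest of the 6 values was 97.8 and those of the space arrays ranged from 6.64 to 49.7, giving -0.82 ± 0.45.

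The single gene of the 6 with a higher space level was pqn-83. On its brightest probe set the space arrays read 1191, 722 and 791 and the ground arrays 575, 439 and 400.3, without overlap, and the log2 fold change was 0.89 ± 0.27 (95% interval 0.28 to 1.51, adjusted p = 0.0779, limma). The other 3 probe sets for pqn-83 stood at -0.10, 0.00 and -0.16. On the one nearest in intensity, the space arrays read 715, 668 and 509 and the ground arrays 809, 646 and 579, in full overlap. The higher space level thus rested on 1 of 4 probe sets, and all 4 are marked as holding shared probes.

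Probe sets of the same gene often differed in sign. Of the 23 genes with several probe sets, 13 had log2 fold changes on both sides of 0. For pqn-96 the brighter probe set stood at -0.14 ± 0.21. The other read 386, 335 and 285 on the space and 184, 157 and 202 on the ground arrays, a clear separation, and stood at 0.83 ± 0.22 with an adjusted p of 0.0533 in limma. Neither of these carries the mark of shared probes. The gene pqn-41, whose polyglutamine protein promotes the death of the linker cell of the male gonad, had 4 probe sets that ran from -0.59 to 0.88. Its brightest read 182 to 196 on the space and 141 to 268 on the ground arrays (-0.01 ± 0.26), and the other 3 had means at or below 22.9. A dim probe set for pqn-52 stood at 1.09 ± 0.30 (adjusted p = 0.0632, limma), where the brightest stood at 0.25. Its mean was 63.0 and its ground arrays read 17.8 to 44.9, in the range of absent sequences, so the size of that difference is uncertain. Counted singly, 0 of 93 probe sets passed in limma, against 7.31% of all probe sets, and 12 lay under an unadjusted p of 0.05, against 24.6%.

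**Figure D3:**
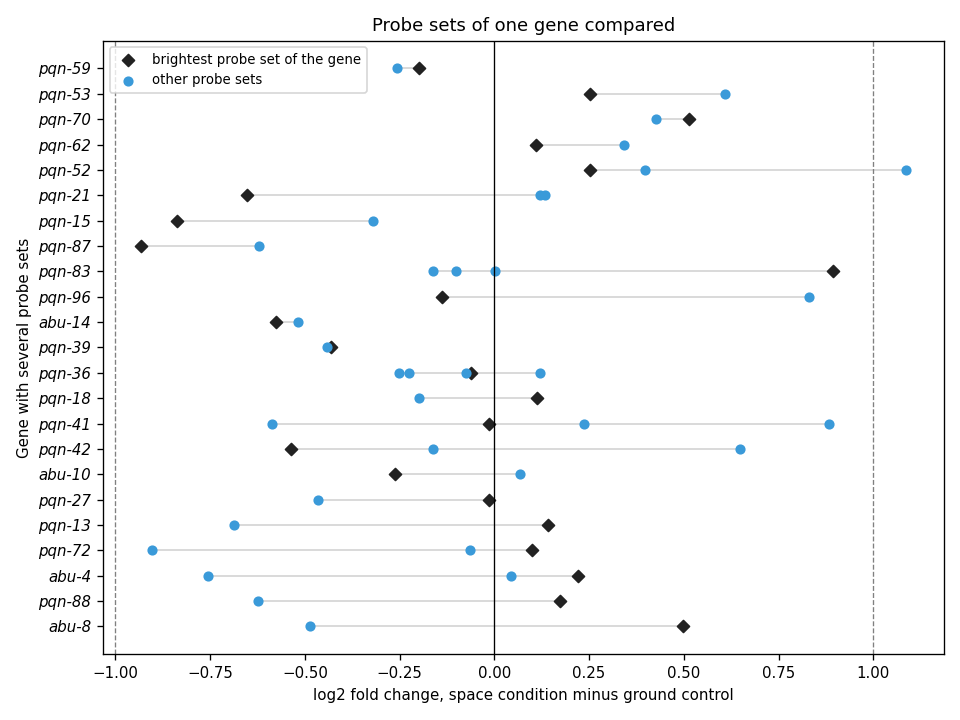
Log2 fold change (x axis, space condition minus ground control) of every probe set of the 23 genes with several probe sets (y axis), with diamonds for the brightest probe set of the gene, circles for the others and dashed lines at a 2-fold change. The probe sets of pqn-83, pqn-96 and pqn-41 lie on both sides of 0, while those of abu-14, pqn-87 and pqn-70 lie on 1 side.

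The remaining pqn genes stood between -0.66 (pqn-75) and 0.59 (pqn-73). Groups did not overlap for pqn-39, pqn-42, pqn-8 and pqn-74, each lower on the space arrays, at -0.43, -0.54, -0.38 and -0.46. Their adjusted p-values in limma ran from 0.205 to 0.279. The values of pqn-8 were the tightest of these, at 107, 118.9 and 126 on the space and 153, 164 and 157 on the ground arrays. Dimmer probe sets of pqn-42 stood at -0.16 and 0.65, with the groups overlapping on both, and that of pqn-39 stood at -0.44 without overlap. Genes with a difference close to 0 and an interval within 2-fold included pqn-25 (-0.05), pqn-51 (0.00), pqn-35 (0.03), pqn-68 (-0.02), pqn-36 (-0.06) and pqn-27 (-0.01).

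Gene lists from the biology in which abu and pqn genes have been placed were read from the same fit. Of 24 genes of the unfolded protein response of the endoplasmic reticulum, 0 rose and 1 fell, where 5.34% and 2.42% of all genes did, and the median was -0.42. At an unadjusted p under 0.05 in limma there were 1 higher and 8 lower (15.1% and 10.5% of all genes). A lower mean on the space arrays was found in 19 of the 24 (51.3% of all genes). In 10 the space arrays lay below every ground array (13.8% of all genes), and in 2 above (17.6%). The 1 higher was atf-4, at 0.59 ± 0.21 without overlap, and hsp-4 stood at 0.31 ± 0.39, so the list did not move as 1. The summed level of the 24 was 68603 to 77578 on the space and 93903 to 109975 on the ground arrays, without overlap. The one that fell was pdi-2, a protein disulfide isomerase that also serves in collagen hydroxylation, with 829 ± 279.8 in the space condition against 1898 ± 433 in the ground control (mean ± SD, n = 3 each; log2 fold change -1.20 ± 0.29, adjusted p = 0.0444, limma). That call was lost on leaving out any single array but space condition 1. The brightest, the calreticulin gene crt-1, stood at -0.59 ± 0.23 (adjusted p = 0.165). In the CED-1 and OCTR-1 list none of 10 genes passed in limma, with 1 at an unadjusted p under 0.05 (25.6% of all genes) and a median of -0.28. Its brightest member, the engulfment adaptor gene ced-2, stood at -0.33 ± 0.19.

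Among 12 genes of the pharyngeal lining and glands none passed either, and 6 of the 12 had means in the range of absent sequences. In limma 2 of the 12 lay under an unadjusted p of 0.05, both higher on the space arrays, where 15.1% of all genes were higher at that limit. These were nas-6 and phat-6 (0.61 and 0.55), and the list's median was 0.05. The brightest, the gland gene phat-3, stood at 0.08 ± 0.26. Of 17 other pharynx markers 0 passed at 2-fold, with 5 at an unadjusted p under 0.05 in limma, all lower (10.5% of all genes), and 13 were lower on the space arrays (51.3% of all genes; median -0.42). The summed level of those 17 was 9530 to 10114 on the space and 12040 to 14267 on the ground arrays, without overlap. The pharyngeal myosin gene myo-1, the brightest, stood at -0.99 ± 0.24 (adjusted p = 0.0427, limma), and without it the sum was 7228 to 7697 on the space and 8502 to 9218 on the ground arrays. Summed levels were also lower without overlap in the moulting, hypodermis, body-wall muscle, neuron, and CED-1 and OCTR-1 lists. For neurons they were 23684 to 25852 on the space and 29941 to 33424 on the ground arrays. Without the brightest gene the muscle and the CED-1 and OCTR-1 sums overlapped. The sums of the intestine and of the pharyngeal lining and glands overlapped with all genes kept. A lower sum was thus not particular to the pharynx markers or the unfolded protein response list. The part of pharyngeal tissue in the abu values was not tested. Of 30 moulting genes 4 fell (2.42% of all genes) and 0 rose (5.34%), with a median of -0.49. At an unadjusted p under 0.05 in limma 12 were lower and 0 higher (10.5% and 15.1% of all genes). In 16 the space arrays lay below every ground array (13.8% of all genes). In the range of absent sequences lay 14 of the 30. The genes that fell were fbn-1, a fibrillin-like matrix protein (-1.59 ± 0.23), cut-3, a cuticulin, mlt-8 and mlt-11. For the last 3 the space arrays read 43.4 to 54.1, 8.56 to 16.4 and 29.97 to 56.7, all in the range of absent sequences, so no size is given for their differences. Their ground arrays read 148 to 283, 42.3 to 90.1 and 89.2 to 128.3, and the means of mlt-8 and mlt-11 over all arrays also lay in that range. Leaving out 1 array kept 2 or 3 of the 4 calls, with cut-3 and fbn-1 called each time. The brightest moulting gene, lrp-1, an endocytic receptor of the epidermis, stood at -0.94 ± 0.19 (adjusted p = 0.0264, limma), short of 2-fold.

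Markers of the other tissues moved in both directions. Of 16 germline markers 11 rose (5.34% of all genes) and 0 fell (median 1.24), and their summed level was 13217 to 14121 on the space and 5351 to 6034 on the ground arrays. The count of called germline genes without 1 array ran from 4 (without space condition 2) to 11 (without ground control 1). In the hypodermis list 0 of 11 genes rose and 1 fell, where 5.34% and 2.42% of all genes did, and the median was -0.30. The gene that fell was the collagen gene rol-6, whose space arrays (13.4 to 79.7) lay in the range of absent sequences. Its ground arrays read 128.1 to 189. In neurons 0 of 10 rose and 1 fell (2.42% of all genes), the synaptic vesicle gene rab-3 (-1.07 ± 0.21), and the median was -0.33. In body-wall muscle 1 of 10 rose and 0 fell, the myosin gene myo-3 (1.53 ± 0.27). The muscle median was nevertheless -0.40, and 7 of the 10 had a lower mean on the space arrays (51.3% of all genes). The space arrays lay below every ground array in 4 of the 10 and above in 2. Summed muscle levels were 17527 to 20193 on the space and 24641 to 29195 on the ground arrays, a gap that rested on unc-15, the brightest. In the intestine 1 of 9 rose and 0 fell, the cathepsin B-like protease gene cpr-1 (2.29 ± 0.31), and the median was -0.05. The calls of rol-6 and rab-3 each held on leaving out 1 of the 6 arrays and were lost on leaving out any of the others, that of myo-3 was lost without space condition 2, and that of cpr-1 held each time.

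**Figure D4:**
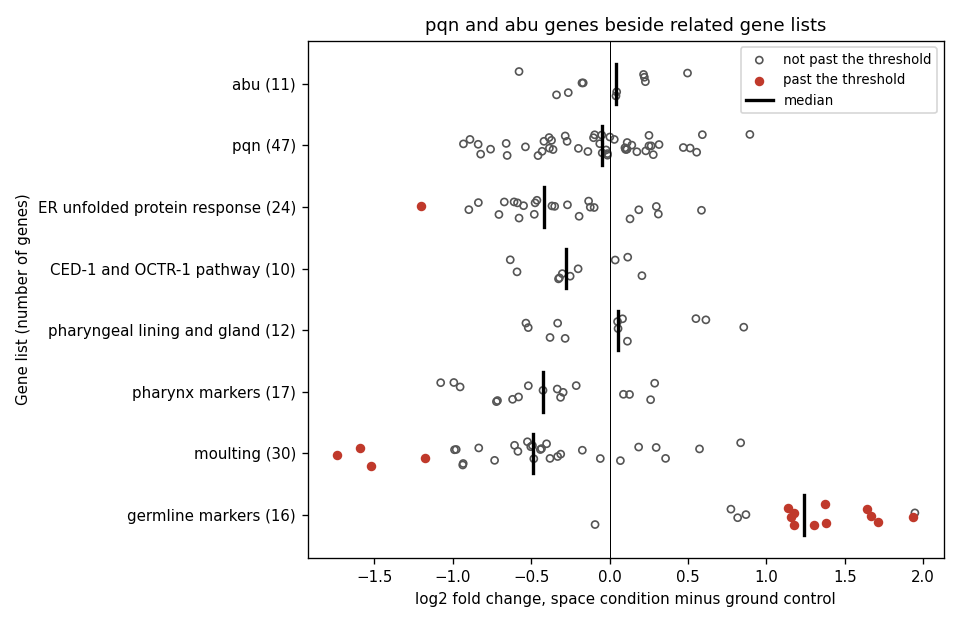
Log2 fold change (x axis, space condition minus ground control) of the genes of each list (y axis, with the number of genes), as filled points where a gene passed the threshold and open points where it did not, with a black bar at the median. The abu and pqn genes lie between -0.93 and 0.89 with no filled point, while the germline list has 11 filled points above 0 and the moulting list 4 below.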

How the data were processed

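The authors deposited 1 linear intensity per probe set and array. Their summarising and scaling are not given in the sources used here. Per the labels, biotin-labelled cRNA was hybridised to Affymetrix arrays. Groups and replicate numbers came from the sample titles. Tests covered 22548 of 22625 probe sets, without the 77 array controls. Deposited intensities were kept, since array medians (102.5 to 128.1) differed by under 0.5 log2 units, and tested on log2(intensity + 16), which understates changes of dim genes, with limma 3.58.1 (lmFit, eBayes) under R 4.3.3. A gene rose or fell at an adjusted p under 0.05 and at least 2-fold. The script was tested on simulated data. Figures used matplotlib 3.10.9 in Python 3.11.15.

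Symbols of the platform annotation were brought up to date with RefSeq by gene identifier. Of the probe sets tested, 20766 had 1 symbol. The members, the gene lists and the alternatives were chosen with earlier results of these data known. The text names each abu gene, each gene past the threshold, the 8 brightest, the 5 largest changes that did not pass, and from each related list up to 4 genes past the threshold and the brightest. Other genes are named after their values were seen: pqn-96, pqn-41, atf-4, hsp-4, nas-6, phat-6 and those given for an overlap, a difference near 0 or a marker call. Subsets by protein composition and by chromosome were not analysed here.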

Additional observations from a re-analysis of the deposited data

How the results depend on the processing

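In 16 of 17 alternatives to the fit no pqn or abu gene passed, and none of 93 probe sets did when each was counted by itself. With the 5'/3' covariate 1 did, pqn-87. With no minimum fold, pqn-87 and pqn-83 lay under an adjusted p of 0.05 in limma in 4 alternatives each, and pqn-48 and pqn-94 in 3 each, none of which left out an array. The group's median moved to -0.11 after quantile normalization and to -0.10 as a mean over all probe sets of a gene, and leaving out 1 array gave -0.10 to -0.014. Same-numbered arrays correlated in their deviations at 0.39, 0.06 and 0.17, and the other pairs of a space and a ground array at -0.28 to 0.16. Space condition 2 correlated better with ground control 3 than with ground control 2. The numbers were not taken as pairs in the main fit, and the pairing was tried as a replicate block. Under that block pqn-87 and pqn-83 had adjusted p-values of 0.0453 and 0.0441 in limma, short of 2-fold. With the replicate block 0 of the 58 genes and 1741 probe sets passed, with 10 of the 58 at an unadjusted p under 0.05. No share over all genes is set beside that last count, so it is not read as a trait of the group.

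The 1648 probe sets called in all came to 1027 with a pseudocount of 1, 905 without marked probe sets, 205 with a 1.5-fold minimum inside the test, 1097 with the covariate, 588 to 1201 without 1 array and 0 without both space condition 1 and ground control 3, where 5176 lay under an unadjusted p of 0.05. The cause was not tested, apart from the fewer probe sets or arrays that some alternatives hold. Rises were 70.5% of these calls on the deposited scaling, 58.8% after quantile normalization and 63.4% after median centring.

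Several differences near 0 changed sign, none of them called. Leaving out 1 array gave -0.028 to 0.42 for abu-12, -0.023 to 0.47 for abu-11, -0.15 to 0.35 for abu-15, -0.072 to 0.55 for abu-4, -0.48 to 0.20 for abu-2, -0.11 to 0.15 for abu-3 and -0.20 to 0.52 for pqn-62. Without both arrays named above, abu-15 stood at -0.17 and abu-4 at -0.15, and with the covariate at -0.096 and -0.016. Median centring put abu-3 at -0.0019, and a probe set of abu-4 without the shared mark stood at -0.75. Levels up to 86.7 lay within the range of the controls for absent sequences, which limits 21 of the 58 genes. That limit is the highest control value, and the median of the controls was 6.48.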
